A study of Mus musculus with 6 samples.

Results

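A set of 10 genes of the cartilage and bone programs was followed in bone marrow stromal cells (BMSC) recovered from the stroke-injured mouse brain. They are Sox9, Sox5, Sox6, Acan, Hapln1, Chad, Runx2, Sp7, Alpl and Ibsp. They were chosen by name, with earlier results of these data known. A gene entered through each probe set (the group of short probes that reports 1 transcript on the array) annotated to that symbol alone. Of the 10 genes, 9 had such a probe set, with 24 probe sets in all, out of 18193 genes and 45037 probe sets measured. Runx2, the Runt-domain transcription factor that commits cells to the osteoblast lineage, had none in the annotation used and is not analysed here. The value given first for each gene comes from its brightest probe set (by mean log2 signal over the 6 arrays), called its main probe set, and the other probe sets served as a check.

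The 3 iLarge T BMSC arrays (replicates 2, 4 and 6) held RNA of cells that had been injected intravenously into male C57BL/6 mice after transient occlusion of the middle cerebral artery, had entered the infarct, and were then recovered and cultured again. The 3 naïve Large T BMSC arrays (replicates 1, 3 and 5) held RNA of the parent cells, which were never injected. Both groups came from immortomouse (H-2Kb-tsA58) marrow, so the cells of both express the temperature-sensitive large T antigen of SV40 from the H-2Kb promoter and divide at the permissive temperature, and both were grown in culture before RNA was taken. RNA for each array was pooled from 3 hemispheres or 3 sets of naïve cells, so the spread between arrays is that between pools.

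In the developing skeleton, SOX9 switches on the cartilage matrix genes and acts together with the related factors SOX5 and SOX6. Chondrocytes then secrete type II collagen, the proteoglycan aggrecan and the link protein that fastens aggrecan to hyaluronan. Osteoblasts arise from the same mesenchymal progenitors under RUNX2 and then SP7, and lay down matrix that alkaline phosphatase and acidic matrix proteins help to mineralise. Cultured BMSC can be driven along either route, and for that reason these genes serve as lineage markers of such cells.

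Signals are linear MAS5 intensities, scaled by the authors to the same trimmed mean on every array. A signal under the 40th percentile of its array, a limit of 182.5 to 299.6, is called near background here, since the table gives no detection calls. Differences are log2 iLarge T minus naïve, tested with limma over all 45037 probe sets, and a gene was called when the Benjamini-Hochberg adjusted p was under 0.05 and the change at least 2-fold. Where 1 group was near background on every array, the change is also given as a lower limit, "at least N-fold", against the limit on those arrays, since the fitted value then depends on signals with no reliable level. The log2 signals of naïve replicate 1 correlated at 0.829 and 0.831 with those of the other naïve arrays, which correlated at 0.892 with each other. The iLarge T arrays correlated at 0.845 to 0.863 with each other. Values without naïve replicate 1 are given where they differ. The 8 stromal marker genes measured, including the collagens Col1a1, Col1a2 and Col3a1, were above the limit on all 6 arrays. Of these, Pdgfrb was called higher (difference 3.74, SE 0.29, limma adjusted p = 0.000420) and none was called lower. Without being called, Col1a1 had all iLarge T arrays above the naïve arrays, and Nt5e had all of them below.

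None of the 9 measured genes was called at its main probe set, where 3.54% of all genes were called higher and 3.26% lower, or 6.8% in either direction. At an unadjusted limma p under 0.05 there were 2 of 9, Sox6 and Hapln1, and 22% of all genes. The t-test that the methods name also gave 2 of 9 at an unadjusted p under 0.05 on log2 signals, against 19.2% of all genes. On linear signals it gave 3 of 9, against 17.6% of all genes. The median difference over the 9 genes was 1.08, against 0.06 over all genes. Of the 9 differences 5 were positive, where 52.5% of all genes had a positive difference. The arrays of the 2 groups did not overlap for Sox6 and Hapln1, with all iLarge T arrays above, and for Sox5, with all iLarge T arrays below, which is 3 of 9 genes, where 27.6% of all genes did not overlap. Apart from that of the t-test on linear signals, these shares are close to those of all genes. In bulk RNA such as this, fewer cells of a type and less RNA per cell cannot be told apart.

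**Figure D1:**
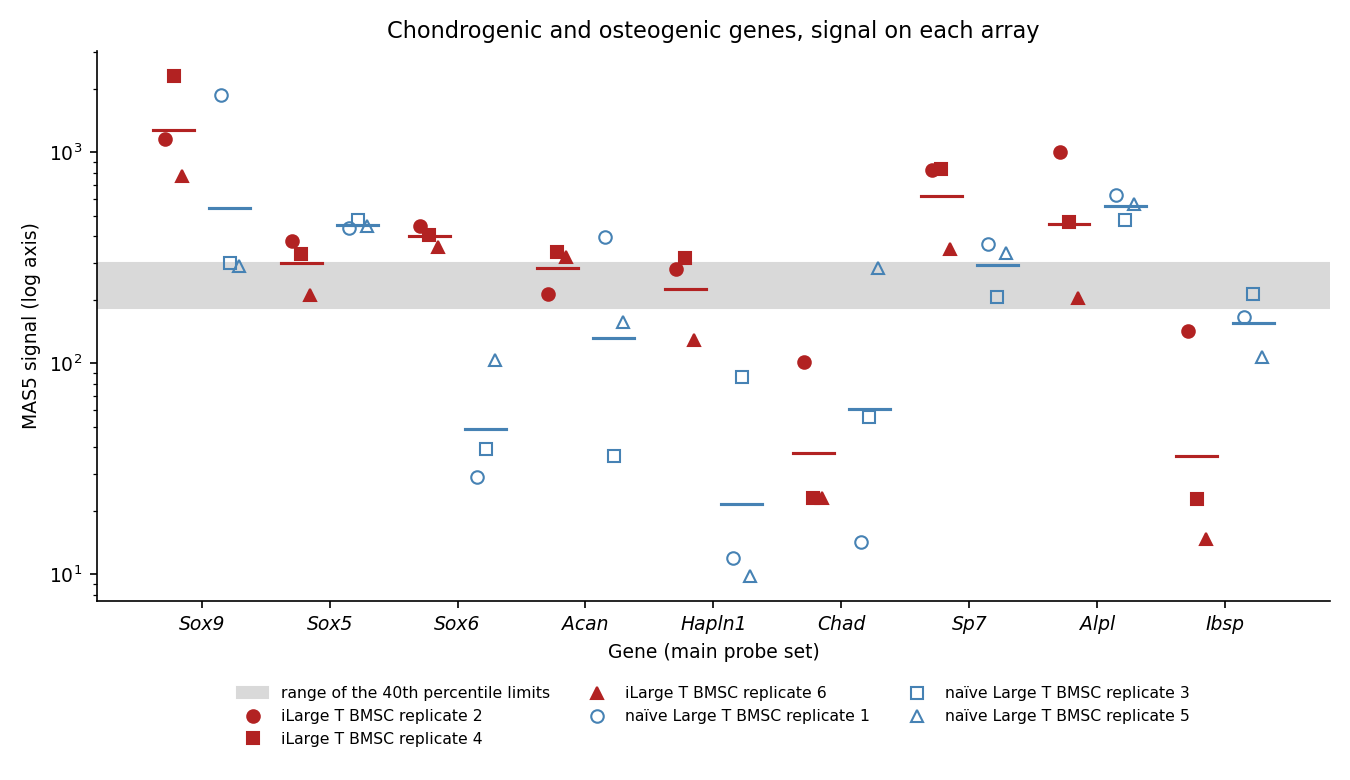
Signal of the 9 measured genes at their main probe sets on each array, on a log axis, with the iLarge T BMSC arrays left of the naïve Large T BMSC arrays in each panel. Points are single arrays, and the iLarge T points lie wholly above the naïve points for Sox6 and Hapln1 and wholly below them for Sox5.

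The stretches around a transcript start of each of these 3 genes are shown because they are the members whose arrays of the 2 groups did not overlap at the main probe set. The sequences are RefSeq's on build GRCm38.p6, from 250 bases before to 50 bases after a transcript start, read 5′ to 3′ on the strand of the gene. Capitals mark matches to 3 short motifs, searched on both strands: ACAAAG and ACAATG, the letters that SOX factors bind, and ACCACA, the core letters that RUNX factors bind. Sox5 lies at chr6:143947057-143947356 on the minus strand, Sox6 (the most upstream of its 6 starts) at chr7:116038695-116038994 on the minus strand, and Hapln1 at chr13:89540386-89540685 on the plus strand. The Sox5 start, the 1 listed in the table used, lies inside the gene (143828425 to 144782287) and far from its upstream end.
Sox5: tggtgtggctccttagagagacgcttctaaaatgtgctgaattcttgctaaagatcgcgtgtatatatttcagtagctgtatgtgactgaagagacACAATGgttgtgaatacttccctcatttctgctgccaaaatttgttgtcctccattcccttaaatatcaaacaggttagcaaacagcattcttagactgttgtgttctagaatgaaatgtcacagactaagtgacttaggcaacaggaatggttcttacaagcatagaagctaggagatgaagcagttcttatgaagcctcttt
Sox6: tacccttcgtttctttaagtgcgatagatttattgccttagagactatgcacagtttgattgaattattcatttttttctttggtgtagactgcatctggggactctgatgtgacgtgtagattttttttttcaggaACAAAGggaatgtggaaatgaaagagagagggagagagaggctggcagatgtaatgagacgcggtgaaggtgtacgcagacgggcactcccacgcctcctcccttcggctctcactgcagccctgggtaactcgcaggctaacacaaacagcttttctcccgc
Hapln1: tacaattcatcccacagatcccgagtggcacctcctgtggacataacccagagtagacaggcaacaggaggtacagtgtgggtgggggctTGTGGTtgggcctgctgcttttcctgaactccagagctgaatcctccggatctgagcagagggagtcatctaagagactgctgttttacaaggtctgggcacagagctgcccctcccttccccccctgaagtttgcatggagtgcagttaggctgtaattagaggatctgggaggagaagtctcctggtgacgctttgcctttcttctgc
The Sox5 window held 1 ACAATG, the Sox6 window 1 ACAAAG, and the Hapln1 window 1 ACCACA on the opposite strand, printed here as TGTGGT, with no overlap between motifs. Of 32851 such windows of RefSeq starts 18.7% held ACAAAG, 12.6% held ACAATG and 16.8% held ACCACA, so each match is a common one and is given as a description only. Windows were found for 8 of the 10 genes.

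Sox9, which encodes the regulator that starts the chondrocyte program, lies on chromosome 11 (112782210 to 112787757). Its main probe set (1451538_at) gave signals of 1152, 2306 and 769 on iLarge T replicates 2, 4 and 6, against 1865, 299.7 and 291 on naïve replicates 1, 3 and 5. All iLarge T arrays were above naïve replicates 3 and 5, but naïve replicate 1 was above 2 of the 3 iLarge T arrays. The difference was 1.22 (SE 0.75, 95% interval −0.47 to 2.90), which did not pass the test (limma, adjusted p = 0.468). Without naïve replicate 1 it was 2.10 and was called (limma, adjusted p = 0.0396), where 7.13% of all genes were called higher and 6.67% lower.

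The other probe sets of Sox9 gave different pictures. At 1424950_at the signals were 939, 3454 and 898 in iLarge T BMSC, against 1651, 18.8 and 12.7 in naïve Large T BMSC. Here too naïve replicate 1 lay among the iLarge T arrays while naïve replicates 3 and 5 were near background. The difference was 4.28 (SE 1.62, limma adjusted p = 0.194), and without naïve replicate 1 it was 6.53 (limma, adjusted p = 0.00181). At 1433889_at the signals were 21.4, 205 and 197 in iLarge T BMSC, against 148, 82.0 and 125 in naïve Large T BMSC, a difference of −0.27 (limma, adjusted p = 0.943), with every naïve array near background. Whether Sox9 differed between the groups therefore rested on 1 naïve array.

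Sox5, on chromosome 6, encodes a partner of SOX9 that has a DNA-binding domain but no activation domain of its own. Its main probe set (1455535_at) gave 379, 330 and 211 in iLarge T BMSC, against 439, 477 and 447 in naïve Large T BMSC. The iLarge T arrays were all below the naïve arrays, but the difference of −0.61 (SE 0.60, 95% interval −1.95 to 0.73) did not pass the test (limma, adjusted p = 0.686).

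The one called probe set among the 24 was another of Sox5. At 1432189_a_at the signals were 37.7, 23.4 and 51.1 in iLarge T BMSC, against 1055, 1099 and 960.4 in naïve Large T BMSC. All iLarge T arrays were near background and all naïve arrays well above it, and the signal fell by 4.86 on the log2 scale (SE 0.79, 95% interval −6.63 to −3.10, limma adjusted p = 0.00820), at least 4.20-fold lower. Over all probe sets 2.27% were called lower and 2.47% higher. The call was lost without naïve replicate 3 (adjusted p = 0.0623, limma) and without naïve replicate 5 (adjusted p = 0.053, limma), while the lower limit stayed between 3.62 and 4.63 when single arrays were left out.

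Of the 7 probe sets of Sox5, 6 had a negative difference, and in 4 of them the iLarge T arrays lay wholly below the naïve arrays, where 23% of all probe sets did not overlap in either direction. At 1423500_a_at the signals were 440.0, 12.0 and 230.5 in iLarge T BMSC, against 945, 881 and 969.9 in naïve Large T BMSC (difference −3.13, limma adjusted p = 0.201). At 1440827_x_at they were 176, 25.1 and 77.3 in iLarge T BMSC, against 458, 369.9 and 194 in naïve Large T BMSC (difference −2.20, limma adjusted p = 0.297). Both sets had iLarge T arrays wholly below the naïve arrays without passing the test. The signals overlapped at 1452511_at (difference −0.59), and 2 more probe sets were near background on all 6 arrays. The probe sets of 1 gene share its transcripts and are not independent of each other.

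Sox6, on chromosome 7, encodes the close relative of SOX5 with which it acts in cartilage, and its differences had the opposite sign. Its main probe set (1427677_a_at) gave 449, 405 and 354 in iLarge T BMSC, against 29.0, 39.1 and 104 in naïve Large T BMSC. Every iLarge T array was above its near-background limit and every naïve array below it. The fitted difference was 3.03 (SE 0.92, 95% interval 0.98 to 5.09) and, with the naïve arrays set at their limit, the signal was at least 1.83-fold higher. It did not pass the test over all probe sets (limma, adjusted p = 0.103, and 0.109 to 0.269 when single arrays were left out).

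At 1426018_a_at the Sox6 signals were 274, 415 and 272 in iLarge T BMSC, against 9.28, 103 and 5.66 in naïve Large T BMSC (difference 4.16, limma adjusted p = 0.108). At 1434918_at they were 152, 676 and 580.5 in iLarge T BMSC, against 37.8, 104 and 32.0 in naïve Large T BMSC (difference 2.96, limma adjusted p = 0.148). In both sets the iLarge T arrays lay wholly above the naïve arrays, so that 3 of the 4 probe sets did not overlap, where 23% of all probe sets did not. The fourth, 1447655_x_at, was near background on all 6 arrays (difference 1.55). Since no naïve array of Sox6 was above the limit at any of its 4 probe sets, the naïve level of Sox6 has only an upper bound.

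**Figure D2:**
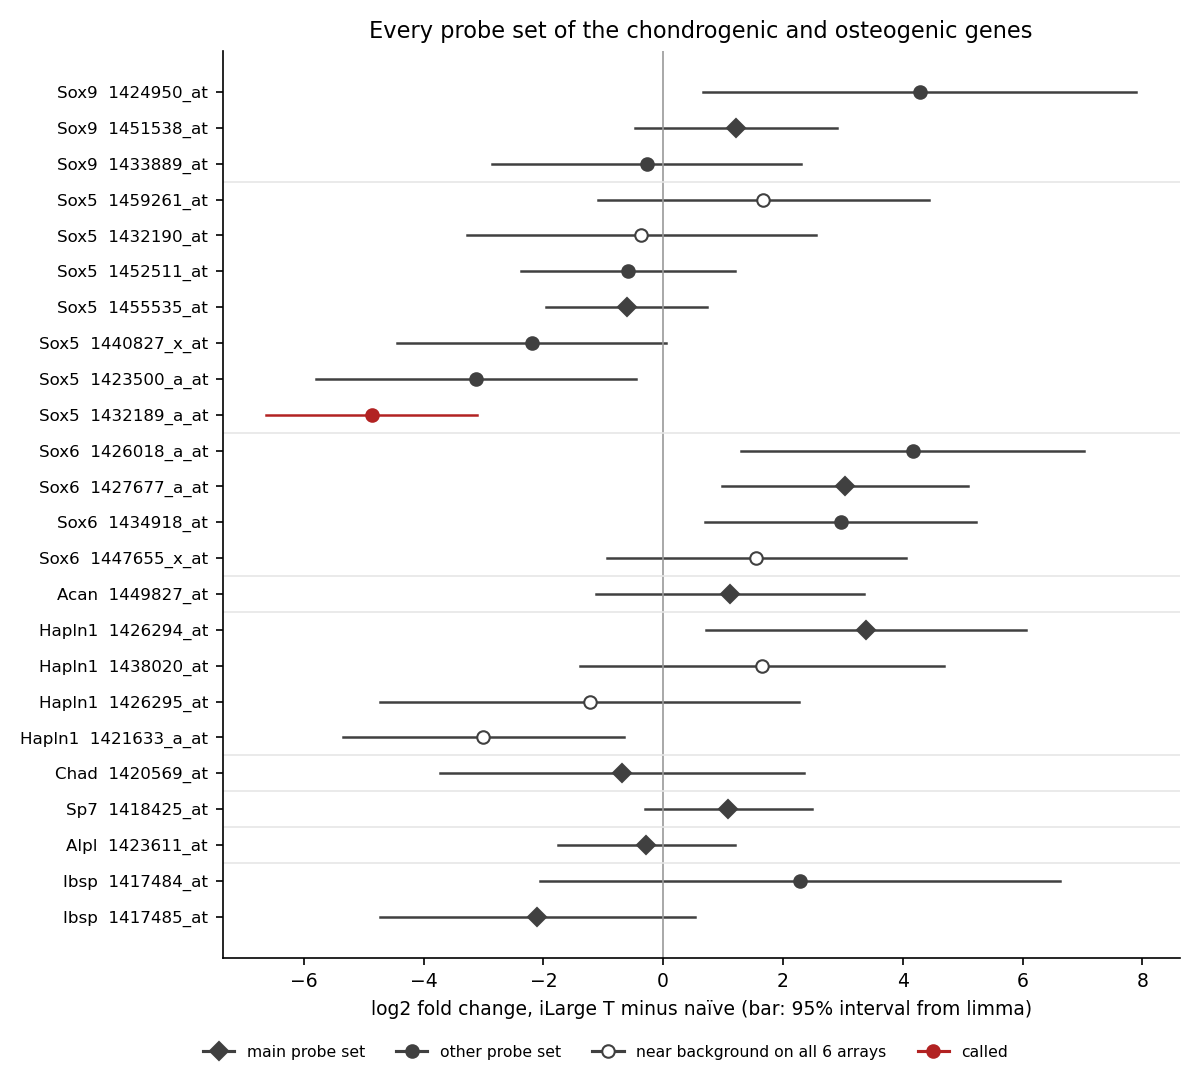
Difference, log2 iLarge T minus naïve, with its 95% interval for each of the 24 probe sets, grouped by gene, with the main probe set of each gene marked. Of the 7 Sox5 probe sets 6 lie below 0 and all 4 Sox6 probe sets lie above 0, and the 1 called probe set is 1432189_a_at of Sox5. Values of groups near background have no reliable level.

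Among the cartilage matrix genes, Acan (chromosome 7), which encodes the large proteoglycan aggrecan, gave 214, 336 and 317 in iLarge T BMSC, against 397, 36.4 and 156 in naïve Large T BMSC at its only probe set (1449827_at). Naïve replicate 1 was the highest of the 6 arrays and the groups overlapped. The difference was 1.11 (SE 1.0, 95% interval −1.13 to 3.35, limma adjusted p = 0.649).

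Hapln1 (chromosome 13) encodes the link protein that holds aggrecan on hyaluronan. Its main probe set (1426294_at) gave 280.3, 314 and 129 in iLarge T BMSC, against 11.9, 86.0 and 9.84 in naïve Large T BMSC. The groups did not overlap, but 1 of the 3 iLarge T arrays was above its limit and none of the naïve arrays was. The fitted difference was 3.38 (SE 1.2, 95% interval 0.71 to 6.05, limma adjusted p = 0.164), and the bound, at least 1.03-fold higher, was lost without iLarge T replicate 2 or 4 or naïve replicate 3 or 5. At a second probe set (1421633_a_at) the groups did not overlap either, but in the other direction, with 13.1, 20.4 and 9.70 in iLarge T BMSC, against 173, 87.2 and 88.1 in naïve Large T BMSC (difference −3.0, limma adjusted p = 0.158), all near background. The 4 probe sets of Hapln1 thus gave no common direction, with 2 positive and 2 negative differences.

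Chad (chromosome 11) encodes chondroadherin, a leucine-rich repeat protein of cartilage matrix. Its only probe set (1420569_at) gave 102, 22.9 and 23.0 in iLarge T BMSC, against 14.2, 55.8 and 282 in naïve Large T BMSC. Only naïve replicate 5 was above its limit, and the difference of −0.69 (SE 1.36, 95% interval −3.73 to 2.35, limma adjusted p = 0.866) had a positive sign without that array.

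Sp7 (chromosome 15), the source of the osteoblast factor osterix that acts after RUNX2, gave 823, 835 and 349 in iLarge T BMSC, against 369, 206 and 331 in naïve Large T BMSC (1418425_at). iLarge T replicates 2 and 4 were above every naïve array, while replicate 6 lay below naïve replicate 1. The difference was 1.08 (SE 0.62, 95% interval −0.31 to 2.48, limma adjusted p = 0.426).

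Alpl (chromosome 4) encodes tissue-nonspecific alkaline phosphatase, which removes pyrophosphate and so permits mineralisation. It gave 1003, 467 and 204 in iLarge T BMSC, against 628, 479.6 and 568 in naïve Large T BMSC (1423611_at). The naïve arrays lay close together and within the wider range of the iLarge T arrays. The difference was −0.28 (SE 0.66, 95% interval −1.75 to 1.19, limma adjusted p = 0.890), with an interval that takes in a 2-fold change in either direction.

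Ibsp (chromosome 5) encodes bone sialoprotein, an acidic matrix protein of mineralising tissue. Its main probe set (1417485_at) gave 142, 22.8 and 14.7 in iLarge T BMSC, against 165, 213 and 107 in naïve Large T BMSC, with naïve replicate 3 the only array above its limit. The second probe set (1417484_at) gave 24.4, 241 and 52.4 in iLarge T BMSC, against 392, 3.51 and 1.97 in naïve Large T BMSC. The differences were −2.10 (SE 1.18, limma adjusted p = 0.410) and 2.28 (SE 1.94, limma adjusted p = 0.626), so no direction can be given for Ibsp.

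Genes around the members were taken from 3 lists. Like the members, the lists were chosen with earlier results of these data known. Their counts, shares and medians beside those of all genes are therefore a description and not a test. Of 32 other cartilage genes 30 were measured, of which 4 were called higher and none lower, beside 3.54% and 3.26% of all genes. At an unadjusted limma p under 0.05 there were 8 (26.7%), against 22% of all genes. Their median difference was 0.92, and 24 of the 30 differences were positive, where 52.5% of all genes had a positive difference. Of the 30 genes 14 (46.7%) were above the limit on all 3 arrays of a group, against 65.7% of all genes. Another 5 were near background on all 6 arrays. Differences of genes near background count here but have no reliable size. The called genes were Col2a1, encoding type II collagen, Col10a1, encoding the collagen of hypertrophic chondrocytes, Mmp13, encoding a collagenase of hypertrophic cartilage and of osteoblasts, and Papss2, encoding an enzyme that makes the sulfate donor for proteoglycans. Without naïve replicate 1, 8 cartilage genes were called higher, among them 3 of these 4.

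Col2a1 gave 7593, 10085 and 811 in iLarge T BMSC, against 23.5, 40.5 and 12.4 in naïve Large T BMSC. All naïve arrays were near background, and the signal was at least 18.1-fold higher (limma, adjusted p = 0.00388), a bound that became 40.03 without iLarge T replicate 6, the lowest of its group, and 11.3 without replicate 4. Mmp13 gave 1772, 8577 and 6534 in iLarge T BMSC, against 6.13, 110 and 29.8 in naïve Large T BMSC, at least 21.2-fold higher (limma, adjusted p = 0.00481), and at least 34.2-fold without iLarge T replicate 2. In both genes every iLarge T array was above every naïve array.

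Col10a1 gave 1061, 2300 and 1572 in iLarge T BMSC, against 46.7, 8.69 and 198 in naïve Large T BMSC. Its difference of 5.18 (SE 1.09, limma adjusted p = 0.0259) lost its call without any 1 of the iLarge T arrays (adjusted p = 0.0844, 0.136 and 0.109 without replicates 2, 4 and 6) and was 2.81 when low signals were raised to the limit. Papss2 gave 8917, 9775 and 8781 in iLarge T BMSC, against 3673, 4831 and 4483 in naïve Large T BMSC (difference 1.09, SE 0.24, limma adjusted p = 0.0324). It was called at 1 of its 4 probe sets and lost the call when any single array was left out, with adjusted p up to 0.146 (limma) and, without naïve replicate 1, a difference of 0.98, just under 2-fold. Col2a1 and Mmp13 thus kept their calls without each array in turn, while Col10a1 and Papss2 did not. With no intensity trend in limma the adjusted p was 0.0581 for Col2a1 and 0.0678 for Mmp13, and the methods' t-test called neither gene on either scale.

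Of 41 other bone genes 33 were measured, of which 5 were called higher and 1 lower, beside 3.54% and 3.26% of all genes. Their median difference was 0.75, and 16 (48.5%) had an unadjusted limma p under 0.05, against 22% of all genes. Bglap and Spp1, which encode osteocalcin and osteopontin, were without a probe set annotated to them alone and are not analysed here. The genes called higher include Mgp, encoding matrix Gla protein, and Ank, encoding a transporter that supplies extracellular pyrophosphate, both known as inhibitors of mineralisation. The others were Slc20a1, encoding a phosphate transporter, and Msx2 and Runx1, encoding transcription factors. Smpd3, encoding a neutral sphingomyelinase needed for bone mineralisation in mice, was lower. Without naïve replicate 1 the counts were 9 higher and 2 lower.

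Mgp gave 117348, 99769 and 95410 in iLarge T BMSC, against 18556, 9882 and 12151 in naïve Large T BMSC, a difference of 2.99 (SE 0.28, limma adjusted p = 0.000713). Slc20a1 gave 84066, 57523 and 32968 in iLarge T BMSC, against 4833, 6893 and 7042 in naïve Large T BMSC, a difference of 3.14 (SE 0.34, limma adjusted p = 0.00133), called at 1 of its 3 probe sets. Msx2 gave 12423, 5883 and 7517 in iLarge T BMSC, against 80.1, 227 and 219 in naïve Large T BMSC, a difference of 5.69 (SE 0.51, limma adjusted p = 0.000675), called at 1 of its 2 probe sets. In each of these genes the lowest iLarge T array was well above the highest naïve array.

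Ank gave 25378, 34279 and 7481 in iLarge T BMSC, against 2651, 62.1 and 296 in naïve Large T BMSC. The difference of 5.68 (SE 1.12, limma adjusted p = 0.0198) lost its call without iLarge T replicate 2 (adjusted p = 0.0968), iLarge T replicate 4 (adjusted p = 0.100) or naïve replicate 5 (adjusted p = 0.0554). Runx1, which is also a relative of the member Runx2, gave 2954, 1834 and 2883 in iLarge T BMSC, against 1001, 845 and 914 in naïve Large T BMSC (difference 1.45, SE 0.35, limma adjusted p = 0.0466). It was called at 1 of its 6 probe sets, and lost the call without any array other than naïve replicate 1 (limma, adjusted p up to 0.175). Smpd3 gave 706, 941 and 339 in iLarge T BMSC, against 12052, 13988 and 13640 in naïve Large T BMSC, and fell by 4.44 on the log2 scale (SE 0.39, limma adjusted p = 0.000610), called at all 3 of its probe sets. Of these 3 genes, Smpd3 kept its call without each array in turn.

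**Figure D3:**
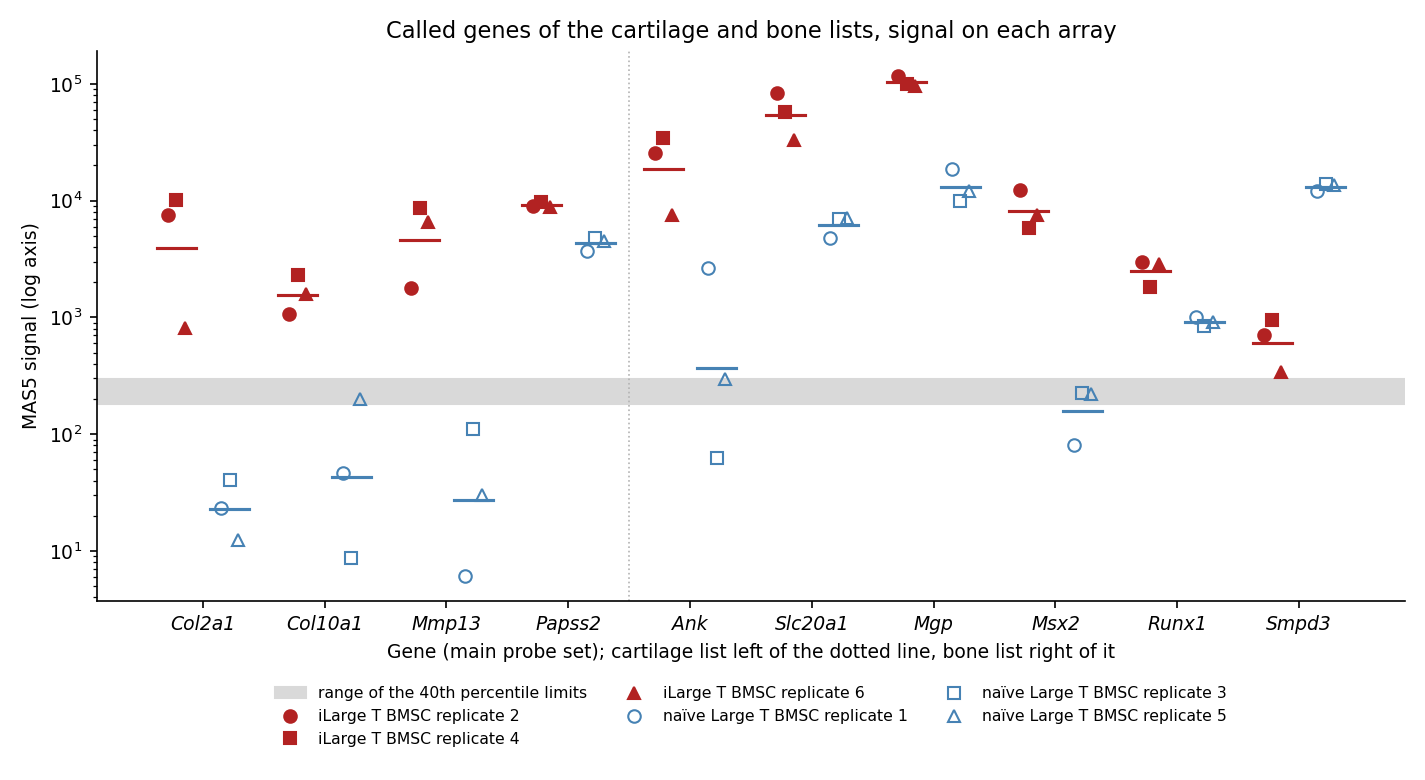
Signal on each array, on a log axis, of the called genes of the cartilage list (left) and the bone list (right), with filled iLarge T BMSC points left of open naïve Large T BMSC points, geometric means as lines, and a grey band for the near-background limits of 182.5 to 299.6. Smpd3 is the 1 gene with lower iLarge T signals, and points under the band have no reliable level.

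Of 46 relatives of the members 45 were measured: SOX, RUNX and Sp factors, alkaline phosphatases, and matrix genes of the same families. Of these 4 were called higher and 2 lower, beside 3.54% and 3.26% of all genes. Their median difference was 0.83, and 19 (42.2%) had an unadjusted limma p under 0.05, against 22% of all genes. Sox2, encoding a factor of neural and other stem cells, gave 2187, 4476 and 912 in iLarge T BMSC, against 12.99, 182 and 3.21 in naïve Large T BMSC, at least 9.49-fold higher (limma, adjusted p = 0.0238). The call was lost without iLarge T replicate 2, 4 or 6 (limma, adjusted p = 0.103, 0.131 and 0.0685), and the bound without replicate 6 was 14.3. Sox11, encoding a factor of immature neurons and of mesenchyme, gave 20830, 3460 and 3006 in iLarge T BMSC, against 251, 30.5 and 137 in naïve Large T BMSC, at least 27.5-fold higher (limma, adjusted p = 0.00676) and at least 14.8-fold without iLarge T replicate 2. It was called at 4 of its 6 probe sets. The relatives closest to Sox9 were not called: Sox10 had a difference of −0.01 (SE 0.59, limma adjusted p = 0.994) and Sox8 one of −0.33 (SE 1.45, limma adjusted p = 0.945).

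Fmod, encoding the collagen-binding proteoglycan fibromodulin and related to Chad through its leucine-rich repeats, gave 16420, 1637 and 5685 in iLarge T BMSC, against 452, 462 and 489 in naïve Large T BMSC, a difference of 3.52 (SE 0.69, limma adjusted p = 0.0190), called at 3 of its 6 probe sets. The related Dcn and Ogn, encoding decorin and osteoglycin, fell by 1.26 (SE 0.27, limma adjusted p = 0.0301) and 2.22 (SE 0.52, limma adjusted p = 0.0411) on the log2 scale. Each of these 3 calls was lost without iLarge T replicate 2 or naïve replicate 3, that of Fmod also without iLarge T replicate 6, that of Dcn without iLarge T replicate 4 or naïve replicate 5, and that of Ogn without iLarge T replicate 6 or naïve replicate 5, with adjusted p up to 0.084 for Fmod, 0.140 for Dcn and 0.156 for Ogn (limma). Without naïve replicate 1, 9 relatives were called higher and 2 lower. Runx1, Runx3, Omd, Dmp1 and Mepe stand in more than 1 of the lists.

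**Figure D4:**
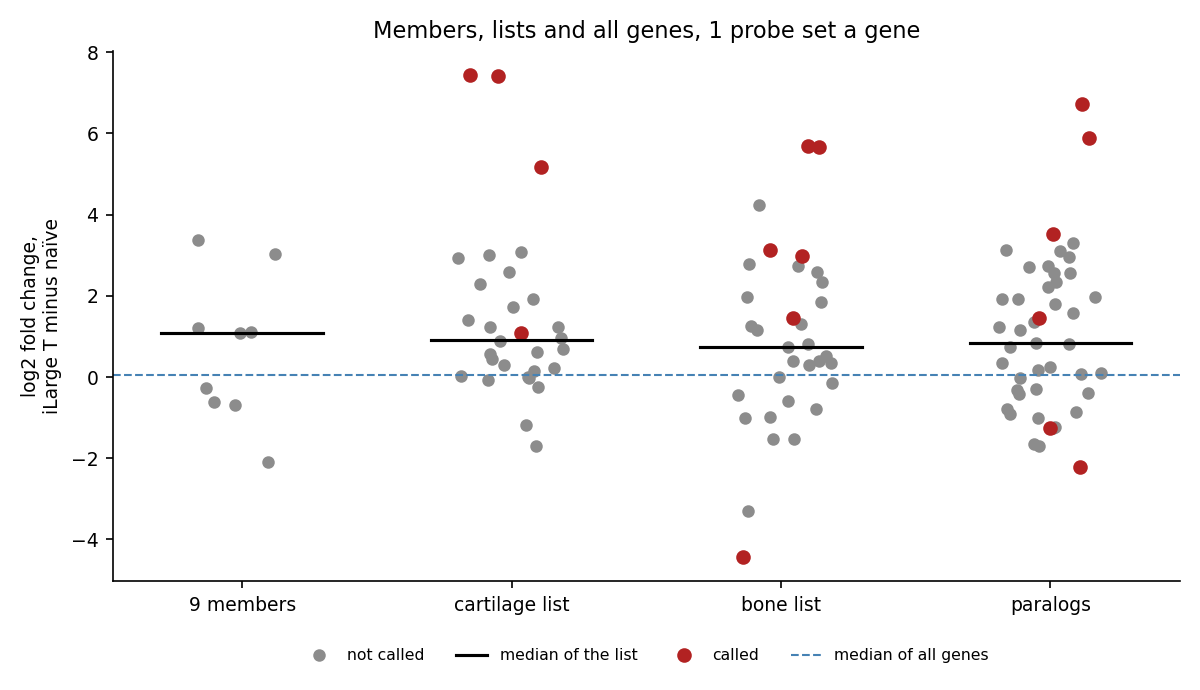
Difference, log2 iLarge T minus naïve, of each measured gene of the 9 members and of the cartilage, bone and paralog lists, with the median of each set. The medians are 1.08, 0.92, 0.75 and 0.83, beside 0.06 over all genes, and differences of genes near background in a group have no reliable size. Members and lists were chosen with earlier results of these data known.

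Genes that mark other cells of the brain were measured beside these results, since SOX9 and SOX2 are also made by astrocytes and neural progenitors and alkaline phosphatase by brain endothelium. The summed signal of the 7 astrocyte and neural progenitor genes was 14361 to 26473 in iLarge T BMSC, against 1312 to 1723 in naïve Large T BMSC. Of them 3 (Fabp7, Nes and Sox2) were called higher. Much of the iLarge T sum was Fabp7, with 15091, 17375 and 7112 on iLarge T replicates 2, 4 and 6. The astrocyte genes Gfap, Aqp4, Slc1a3 and Slc1a2 were not called (limma, adjusted p = 0.308 to 0.813). The arrays of 4 of the 7 genes (Fabp7, Nes, Sox2 and Aqp4) did not overlap, where 27.6% of all genes did not. Gfap gave 446, 173 and 3104 on iLarge T replicates 2, 4 and 6, against 283, 189 and 23.1 on naïve replicates 1, 3 and 5. The 6 endothelial genes summed to 3828 to 35400 in iLarge T BMSC, against 6760 to 9789 in naïve Large T BMSC, with Cdh5 called higher and Tek lower. Most of the naïve sum was Tek, with 5703, 8480 and 9080 on naïve replicates 1, 3 and 5. Cdh5 was near background on every naïve array and at least 24.1-fold higher in iLarge T BMSC. It gave 2211, 2787 and 23797 on iLarge T replicates 2, 4 and 6, and the bound was 11.4-fold without replicate 6. The 8 macrophage and microglia genes summed to 4667 to 50745 in iLarge T BMSC, against 2616 to 10926 in naïve Large T BMSC, with 1 called higher (Csf1r). Cd68, which was not called, made up most of the sum on naïve replicates 3 and 5, with 9873 and 8396. The 5 neuron genes summed to 3378 to 6380 in iLarge T BMSC, against 1455 to 3859 in naïve Large T BMSC, with Tubb3 called higher. The arrays of 3 of them (Tubb3, Snap25 and Syt1) did not overlap, where 27.6% of all genes did not. Snap25 was near background on every naïve array, and Syt1 was above its limit on 1 naïve array. The 4 oligodendrocyte genes summed to 544 to 2002 in iLarge T BMSC, against 1321 to 1752 in naïve Large T BMSC, with none called by limma. iLarge T replicate 6 held the highest endothelial and macrophage sums and the lowest iLarge T signal of 7 of the 9 members (all but Acan and Chad), where it was the lowest iLarge T array for 38.5% of all genes. The part of these cells in the results was not tested.

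Naïve replicate 1 was the highest naïve array for 4 of the 9 members (44.4%), where it was highest for 43.6% of all genes. Without it 1 member, Sox9, was called higher and none lower. Over the 18 hybridization control probe sets (the spiked-in bioB, bioC, bioD and cre transcripts) arrays 1 and 2, 3 and 4, and 5 and 6 were nearest to each other, with mean differences of 0.15, 0.32 and 0.24 on the log2 scale, so the difference within each such pair was also computed. For Sox9 at its main probe set it was −0.69, 2.94 and 1.40. With these pairs as a block no member was called at its main probe set, where 5% of all genes were called higher and 4.86% lower, and 10 bone genes were called higher and 1 lower.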

How the data were processed

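The authors deposited intensity signals on a linear scale, 1 per probe set of the Affymetrix Mouse Genome array, made with the MAS5 algorithm (named in the submitters' processing notes) from pooled RNA. They were used as deposited, without renormalization, and log2 was taken. Gene names came from the platform annotation: of 45037 probe sets other than the 64 controls, 34945 had 1 symbol, 932 several and 9160 none, and 34741 were found in the RefSeq table. The number of arrays limits the precision.

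Group differences were fitted in R 4.3.3 with limma 3.58.1 (lmFit, eBayes with a trend in intensity), and p-values were adjusted over all probe sets by the Benjamini-Hochberg method; the fit was tested on simulated data. Tables were made with pandas 2.3.3 and numpy 2.4.6 under Python 3.11.15, the intervals with scipy 1.17.1 and the figures with matplotlib 3.10.9. Groups came from the sample labels. The members, the gene lists and the rule for named genes (all members, called genes of the 3 lists, and Col2a1, Col10a1, Bglap, Spp1, Sox10 and Sox8) were chosen with earlier results of these data known. Alternatives were quantile normalization, no intensity trend, a filter on dim probe sets, low signals raised to the limit, log2 of the signal plus 16, the methods' t-test on log2 and linear signals, no minimum fold, other choices of probe set, and leaving out each array. After the data were seen, the spike-in pairs as a block and leaving out naïve replicate 1 with iLarge T replicate 2 were added.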

Additional observations from a re-analysis of the deposited data

How the results depend on the processing

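The labels give no pairs of arrays, since the groups share no replicate numbers, so the main comparison was unpaired. The spike-in pairs used as a block were read from the control signals of the arrays and not from the labels, and deviations from the group means correlated at 0.114, 0.013 and 0.098 within them. With the most variable probe set of each gene 1 member (Sox5) was called lower, 3 bone genes higher and 1 paralog lower. The methods' t-test on log2 or linear signals called no cartilage gene, bone gene or paralog higher (0 in each list), no paralog lower (0 on either scale) and, on log2 signals, no bone gene lower (0); over all genes it called 7 higher and 7 lower on log2 signals, and 17 higher and 36 lower on linear signals. With no intensity trend limma called 0 cartilage genes, 2 bone genes and 0 paralogs higher and 0 paralogs lower, and 85 of all genes higher and 48 lower. Low signals raised to the limit gave 9 bone genes, 7 paralogs and 971 of all genes higher. The pairs as a block gave 10 bone genes higher. Leaving out naïve replicate 1 and iLarge T replicate 2 together gave 9 bone genes, 7 paralogs and 1272 of all genes higher and 1278 lower. Leaving out single arrays gave 0 to 1 members, 2 to 8 cartilage genes, 3 to 9 bone genes, 1 to 9 paralogs and 250 to 1298 of all genes higher, and 0 members, 1 to 2 bone genes, 0 to 2 paralogs and 232 to 1214 of all genes lower. The cause of these shifts was not tested.

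Some uncalled differences changed sign. Ibsp was 0.14 with low signals raised, 2.28 at the most variable probe set and 0.089 for the mean of its probe sets. Sox10 was 0.027 in the linear t-test, 1.71 at the most variable probe set, 0.70 for the mean of probe sets and 0.041 without naïve replicate 1 and iLarge T replicate 2, and Sox8 was 0.057 with low signals raised. Without single arrays, Chad ranged over −1.73 to 0.42, Alpl over −0.85 to 0.30, Sox10 over −0.28 to 0.23 and Sox8 over −1.54 to 0.58. With the limit at the 30th or 50th percentile, the bound of Sox5 at 1432189_a_at was 7.21-fold or 2.67-fold, that of Sox6 3.08-fold or 1.18-fold, that of Col2a1 30.4-fold or 11.6-fold and that of Mmp13 35.6-fold or 13.6-fold. For Sox2 and Sox11 it was 6.10-fold and 17.7-fold at the 50th, and at the 30th some naïve arrays were above the limit, so none was given.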

Other observations

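Adipocytes are the other lineage that BMSC form. Of the 4 adipocyte marker genes measured none was called by limma over all arrays. Their summed signal was 1965 to 13358 in iLarge T BMSC, against 1237 to 1888 in naïve Large T BMSC. Adipoq, encoding adiponectin, was called higher without naïve replicate 1 (limma, adjusted p = 0.0293). However, Adipoq was near background on every naïve array and above its limit only on iLarge T replicate 4, so its difference has no reliable size. The naïve array left out was above iLarge T replicates 2 and 6. Of the 4 osteoclast marker genes 1 was called higher, Ctsk, encoding the bone-degrading protease cathepsin K. It gave 14931, 24218 and 31010 in iLarge T BMSC, against 9464, 6996 and 5838 in naïve Large T BMSC (difference 1.62, SE 0.32, limma adjusted p = 0.0192). Acp5, Calcr and Dcstamp were not called (differences 0.03, 0.07 and 0.45), and Dcstamp was near background on all 6 arrays.

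Some genes of these lists were not called over all arrays but were called by limma without naïve replicate 1. Those called higher were Col11a1, Epyc, Cnmd, Chst11 and Trps1 of the cartilage list, and Col1a2, Omd, Tnfrsf11b and Twist2 of the bone list. Among the paralogs they were Sox7, Vcan, Bcan, Hapln3 and Omd. Cbfb of the bone list, which encodes the partner of the RUNX factors, was called lower.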
